A study of Mus musculus with 2 samples.

Results

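Cycling cDC1s are type 1 conventional dendritic cells that were caught with transcripts of dividing cells in the spleen. The cells were chosen by their UMI counts, where a UMI (unique molecular identifier) marks 1 captured transcript. A cell was taken when it held at least 6 UMIs of Top2a and Mki67 together, at least 3 of Irf8, at least 5 of Cadm1, Naaa, Xcr1 and Clec9a together, under 3 of C1qb, 0 of Cd3e and under 3 of Cd79a. This gave 229 of 6393 cells, 118 in replicate 1 and 111 in replicate 2. They were compared with 972 non-cycling cDC1s, which held 0 UMIs of Top2a and Mki67 and passed the rest of the rule, and set beside 361 cDC1s with 1 to 5 such UMIs. Both samples were Wild-Type mice, with no treatment named. The study's methods describe adult mice of both sexes on the C57BL/6J background. Splenic cells were enriched for CD11c on magnetic beads, marked with sample tags and captured on the BD Rhapsody system, which pairs single cells with barcoded beads in microwells. Both samples came from 1 capture run, and the sources used here do not say how many mice each holds, so p-values measure only the spread between these 2 samples.

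cDC1s take up material from dying cells and show its fragments on MHC class I to CD8+ T cells, and the transcription factors Irf8 and Batf3 and the growth factor receptor Flt3 are needed to make them. Splenic DCs are short-lived cells renewed from precursors that come from the bone marrow, and some of the cells still divide in the spleen. A dividing cell copies its DNA in S phase and separates the copies in mitosis. Cyclins with their kinases drive the steps, E2F factors switch on the genes of S phase, and a complex that includes B-Myb and FoxM1 switches on those of mitosis. Inhibitors of the kinases, the Btg and Tob proteins and Mxd factors, which oppose Myc, hold cells out of the cycle.

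The 2 samples held 46953398 and 43137746 UMIs over 27032 genes and shared 0 cell indices. Cycling cDC1s made up 3.57% of all cells of replicate 1 (95% exact binomial interval 2.96 to 4.26, which covers counting error only) and 3.60% of replicate 2 (2.97 to 4.32). Of the cells that passed the cDC1 part of the rule they were 14.3% (11.97 to 16.9) and 15.1% (12.6 to 17.9), and the 2 samples lay within each other's intervals. The samples were enriched for CD11c, so these are not shares of the spleen. Cycling cDC1s were the deeper cells, with a median of 29027 and 30763 UMIs against 17423 and 19141 in non-cycling cDC1s, and with 5275.5 and 5356 genes against 3944 and 4067. A threshold in UMIs is passed more easily by a deep cell. When each cell was thinned to 8000 UMIs before the rule was applied, the share was 11.5% of 698 and 12.01% of 641 cells. Cells below that depth were left out. The thresholds in UMIs were kept and so were stricter at this depth, and the lower share does not measure the part of depth. With 200 or more UMIs of Top2a and Mki67 per 1000000 as the threshold, the mean share of the 2 samples was 17.7%, against 14.7% by the rule. The mean cell held 1.69 and 1.60 times as many UMIs as the mean non-cycling cDC1, a shift of 0.76 and 0.68 on the log2 scale. Every fold change below compares shares of the UMIs, in counts per 1000000 UMIs of the group (CPM), and a gene that fell by less than this shift was not lower in UMIs per cell. Whether a larger cell or a better captured one gave the extra UMIs cannot be told apart.

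The values that chose the cells are given as a description. The median member held 38.5 UMIs of Top2a and Mki67 in replicate 1 and 40 in replicate 2, and the highest 440 and 401. Just inside the threshold, 12 and 7 cells held 6 such UMIs, and just outside it 13 and 17 cells held 5. Top2a, the topoisomerase that untangles copied DNA, was found in 106 of 118 and 105 of 111 members, and Mki67, which coats mitotic chromosomes, in 111 and 107. Each of these 2 genes could be read where the other alone had chosen the cells. With cDC1s chosen by 3 or more UMIs of Mki67, Top2a stood at 1113 and 1083 CPM, against 15.3 and 10.97 CPM in those without Mki67. With cDC1s chosen by Top2a, Mki67 stood at 1099 and 1044 CPM, against 27.3 and 22.7 CPM. Of the genes that made the cells cDC1s, Irf8 had 1839 and 1888 CPM in cycling and 1809 and 1910.1 CPM in non-cycling cDC1s. Naaa, an acid amidase of lysosomes, had 1111 and 1205 against 1177 and 1258 CPM, and Xcr1, the receptor for the chemokine that activated CD8+ T cells secrete, 938 and 885 against 959 and 1019.5 CPM. Cadm1, an adhesion molecule, had 704 and 727 against 1072 and 1158 CPM. Clec9a, the receptor for actin of dead cells, had 827 and 737 against 1619 and 1492 CPM, so its share of the UMIs was lower in the cycling cells of both samples.

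cDC1 markers outside the rule were present. The 3 given here are among those that did not pass the test described below. Of 29 tested genes of that list, 18 (62.1%) were lower in cycling than in non-cycling cDC1s and 3 were higher. Of all genes tested, 17.5% were lower. Cd8a, the alpha chain of CD8 that splenic cDC1s carry, stood at 699 and 664 CPM in cycling cDC1s, at 647 and 714 CPM in non-cycling ones and at 6.47 and 8.68 CPM in 321 other cycling cells with MHC class II genes. Tlr3, the sensor of double-stranded RNA, stood at 297 and 252, 281 and 272 and 3.04 and 7.17 CPM in the same order, and Batf3 at 108 and 118, 114 and 108 and 65.0 and 58.9 CPM. Cycling and non-cycling cDC1s overlapped for these 3 genes. The other cycling cells lay below both for each gene.

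The question of the comparison was which transcripts other than the ones that chose the cells differ between cycling and non-cycling cDC1s, as the rule defines them. UMIs were summed per sample and tested with edgeR's quasi-likelihood test, with Benjamini-Hochberg adjustment and a threshold of 0.05. Of 11378 genes tested, 2281 were higher in cycling cDC1s, which is 20.0% of the genes, and 1994 were lower, which is 17.5%. Genes of DNA copying and mitosis are part of the same programme as Top2a and Mki67, so their rise is not independent of the choice of the cells and is given to show its size and breadth. Gene lists are given with the number of genes past the threshold and the median log2 fold change. Over all genes tested this median was -0.01.

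All 53 genes of the DNA replication list were tested and all 53 rose, with a median log2 fold change of 2.89. Summed over the list, these genes had 4762 and 4559 CPM in cycling cDC1s and 695.6 and 762.0 CPM in non-cycling ones, or 146 and 143 UMIs in the mean cycling cell against 12.6 and 15.0. Mcm5, a subunit of the helicase that opens DNA, had 228 and 222 CPM in cycling and 13.9 and 23.4 CPM in non-cycling cDC1s. Pcna, the clamp that holds the polymerases on DNA, had 473 and 439.9 against 77.0 and 80.0 CPM (log2 fold change 2.51 ± 0.08, SE, adjusted p = 1.08e-08, edgeR). Both genes kept some transcripts in cells without Top2a or Mki67, whereas Cdc6, which loads the helicase, was close to absent there, with 57.0 and 51.8 against 0.424 and 1.46 CPM. Of 28 genes of nucleotide synthesis, 26 rose and 0 fell, with a median of 1.47. Rrm2, the subunit of ribonucleotide reductase that is made in S phase, had 280.0 and 265 CPM in cycling cDC1s and 1.59 and 1.80 CPM in non-cycling ones. Tyms and Tk1, which supply thymidine nucleotides, had 91.8 and 93.4 and 109 and 94.2 CPM against 5.51 and 5.16 and 2.65 and 1.91 CPM. All 26 genes of DNA repair and checkpoints rose, with a median of 3.63. Chek1, the checkpoint kinase, went from 2.23 and 1.46 to 23.7 and 24.6 CPM.

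Most genes of mitosis were low in non-cycling cDC1s. Of 69 tested genes of a list of 71, 68 rose and 0 fell, with a median of 5.67, and the list held 302 and 288 UMIs in the mean cycling cell against 13.5 and 14.4. Cdk1, the kinase of mitotic entry, had 181 and 172 CPM in cycling and 2.54 and 3.82 CPM in non-cycling cDC1s. Its partner Ccnb1 had 67.8 and 69.9 against 0.318 and 0.337 CPM, and Cdc20, which activates the complex that ends mitosis, 68.6 and 50.1 against 0.954 and 0.449 CPM. Birc5, a subunit of the complex that corrects chromosome attachment, had 301 and 279.5 against 1.80 and 0.449 CPM. The exception was Pttg1, securin, with 46.6 and 59.3 CPM in cycling and 53.6 and 52.3 CPM in non-cycling cDC1s (log2 fold change -0.03 ± 0.13, SE, adjusted p = 0.878, edgeR), and the groups overlapped. Foxm1 and Mybl2, which encodes B-Myb, had 54.8 and 46.4 and 25.9 and 23.5 CPM against 1.06 and 1.46 and 1.70 and 1.23 CPM. Of 26 tested chromatin and tubulin genes of dividing cells, 24 rose and 0 fell. Hmgb2, a protein that bends DNA, reached 1991 and 1966 CPM from 149.5 and 149 CPM, and Stmn1, which takes microtubules apart, 674 and 675 from 12.2 and 15.2 CPM. In cDC1s with 1 to 5 UMIs of Top2a and Mki67, Mcm5 stood at 44.5 and 58.8 CPM and Cdk1 at 4.86 and 7.09 CPM, between the other groups for both genes.

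The starts of these genes carry short motifs that the textbook ties to their timing, and 8 promoters are shown, 4 of genes of mitosis and 4 of genes of DNA copying, whether or not they hold a motif. They are read from RefSeq on GRCm38.p6, from 120 bases before to 30 after the annotated start, on the strand of the gene. Capitals mark TTTGAA, the cell cycle genes homology region (CHR) of genes of mitosis, CCAAT, the site of NF-Y, and TTTCCCGC or TTTGGCGC, forms of the E2F site, on either strand. Cdk1 lies at chr10:69352883-69353032 and Cdc20 at chr4:118437314-118437463, both on the minus strand. Ccnb1 lies at chr13:100786457-100786606 and Mcm6, another subunit of the helicase (167 and 190.4 against 24.2 and 28.7 CPM), at chr1:128359676-128359825, both on the minus strand as well. Plk1, a kinase of mitosis (62.3 and 64.7 against 0.848 and 0.786 CPM), lies at chr7:122159315-122159464, Mcm5 at chr8:75109389-75109538 and Rrm2 at chr12:24708134-24708283, all on the plus strand, and Pcna at chr2:132253151-132253300 on the minus strand.
Cdk1: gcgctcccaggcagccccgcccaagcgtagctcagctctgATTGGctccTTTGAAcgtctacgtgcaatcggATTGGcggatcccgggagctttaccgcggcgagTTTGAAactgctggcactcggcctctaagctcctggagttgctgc
Cdc20: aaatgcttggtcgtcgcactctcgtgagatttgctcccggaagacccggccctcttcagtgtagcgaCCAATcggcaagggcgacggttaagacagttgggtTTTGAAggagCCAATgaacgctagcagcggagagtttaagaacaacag
Ccnb1: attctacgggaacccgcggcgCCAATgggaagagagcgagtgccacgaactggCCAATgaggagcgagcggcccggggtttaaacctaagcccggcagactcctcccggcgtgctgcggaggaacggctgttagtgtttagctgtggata
Plk1: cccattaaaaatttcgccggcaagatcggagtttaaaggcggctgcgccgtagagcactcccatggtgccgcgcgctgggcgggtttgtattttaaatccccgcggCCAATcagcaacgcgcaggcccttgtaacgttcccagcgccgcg
Mcm5: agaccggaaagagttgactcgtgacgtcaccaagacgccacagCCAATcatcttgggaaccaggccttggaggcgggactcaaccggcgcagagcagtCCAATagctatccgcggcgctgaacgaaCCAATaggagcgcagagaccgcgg
Mcm6: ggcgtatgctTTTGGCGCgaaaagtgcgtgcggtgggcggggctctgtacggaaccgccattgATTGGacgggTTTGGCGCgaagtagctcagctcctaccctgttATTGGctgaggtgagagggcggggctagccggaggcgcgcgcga
Pcna: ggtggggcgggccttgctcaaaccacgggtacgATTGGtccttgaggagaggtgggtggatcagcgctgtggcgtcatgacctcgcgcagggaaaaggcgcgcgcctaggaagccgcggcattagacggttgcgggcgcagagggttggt
Rrm2: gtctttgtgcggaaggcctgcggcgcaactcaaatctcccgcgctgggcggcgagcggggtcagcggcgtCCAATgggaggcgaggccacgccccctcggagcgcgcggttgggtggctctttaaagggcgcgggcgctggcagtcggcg
In these stretches Cdk1 and Cdc20 held TTTGAA and CCAAT and Mcm6 held TTTGGCGC and CCAAT. Ccnb1, Plk1, Mcm5, Pcna and Rrm2 held CCAAT and neither of the other motifs, where ATTGG is CCAAT read on the other strand. Over windows from 250 bases before to 50 after the start, TTTGAA was found for 38 of 56 genes of mitosis with a window (67.9%), for 10 of 42 of DNA replication (23.8%) and for 20.2% of all 27025 genes of the table. The E2F letters were found for 14 of 42 genes of DNA replication (33.3%), for 4 of 56 of mitosis (7.14%) and for 1.80% of all genes. CCAAT was found for 71.4% and 61.9% of these lists and for 41.1% of all genes. For cDC1 genes outside the rule the shares were 16.7% (TTTGAA), 4.17% (E2F) and 33.3% (CCAAT) of 24 genes. Other lists differed from these. CCAAT was found for 72.7% of 11 MHC class II genes, 71.4% of 21 MHC class I genes and 66.7% of 24 brakes on the cycle. It was found for 33.3% of 27 genes of DC progenitors. A high share of CCAAT was thus not particular to genes of mitosis and DNA replication. TTTGAA was found for 25.9% of the DC progenitor genes, close to its share for DNA replication. Letters in a window are not bound sites, and the lists were set by what the genes do.

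**Figure D1:**
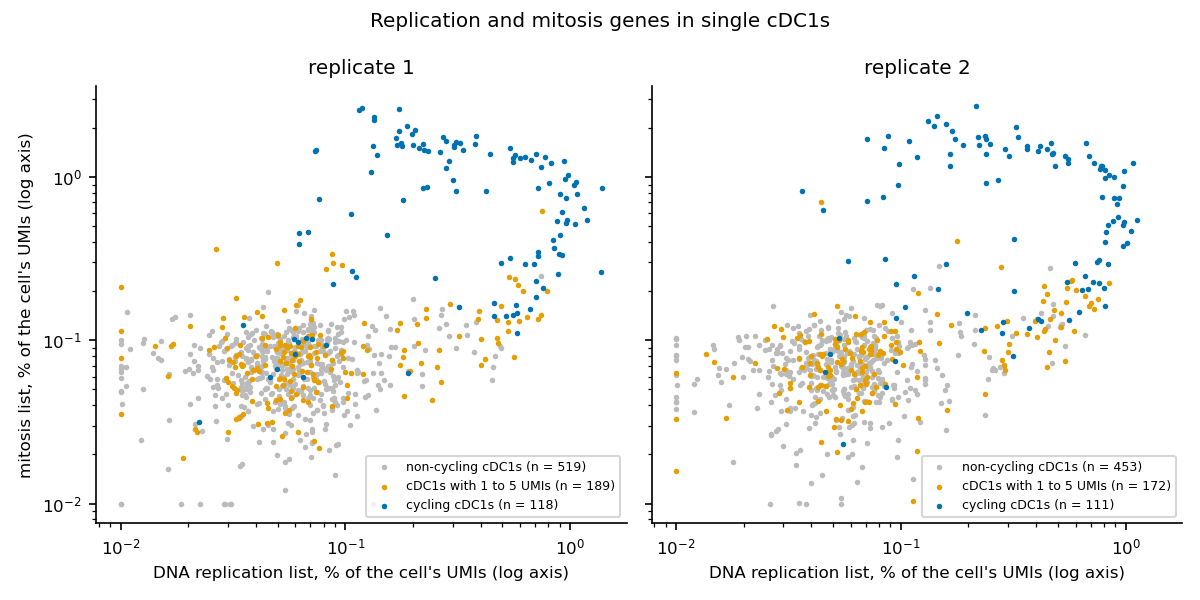
Share of a cell's UMIs in genes of DNA replication (x axis, percent) and of mitosis (y axis, percent), both on log axes with shares under 0.01% drawn at 0.01%, in replicate 1 (left) and replicate 2 (right), with 1 point for each cell. Most non-cycling cDC1s (grey) lie in a cloud at the lower left with a tail to the right, where cDC1s with 1 to 5 UMIs of Top2a and Mki67 (orange) also reach, and cycling cDC1s (blue) form an arc from the end of that tail up and back to the left, apart from a few within the cloud.

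Cycling cDC1s were not 1 uniform state. The plot of each cell's share of UMIs in genes of DNA replication and of mitosis shows an arc of cells rich in replication genes, in both or in mitosis genes. The replication list took 0.169% (lower quartile), 0.323% (median) and 0.720% (upper quartile) of a member's UMIs in replicate 1 and 0.159%, 0.366% and 0.766% in replicate 2. The mitosis list took 0.273%, 0.823% and 1.45% in replicate 1 and 0.238%, 0.752% and 1.40% in replicate 2. In non-cycling cDC1s the medians were 0.056% for both samples in replication and 0.070% and 0.069% in mitosis. The highest replication shares of non-cycling cDC1s were 0.743% and 0.662%, above the medians of the members. Some cells without Top2a or Mki67 UMIs were thus rich in replication genes, and they enter the limits used below (0.158% and 0.213% for replication). Across members, the shares of replication and mitosis had a Spearman rho of -0.02 over 118 cells and -0.05 over 111, and those of replication and nucleotide synthesis 0.89 and 0.87. These correlations describe cells of 1 sample, which share depth and capture, and they stand at -0.02, -0.03, 0.83 and 0.79 when cells are thinned to 8000 UMIs. With the 95th percentile of non-cycling cDC1s of the same sample as a limit, 87 and 71 members lay above it for both lists, 18 and 29 for mitosis alone, 2 and 5 for replication alone and 11 and 6 for neither. A cut in a range is not a cell type, and 21 and 20 members lay within 20% of a limit. Among the cDC1s with 1 to 5 UMIs, 22 and 21 lay above the limit for replication alone, 18 and 20 for both, 16 and 7 for mitosis alone and 133 and 124 for neither.

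Of 17 tested G1 cyclins and Myc factors, 11 were higher (64.7%, against 20.0% of all genes tested) and 3 lower (17.6%, against 17.5%). The median was 0.44. Ccnd1, the cyclin that takes signals from growth factors to the cycle, had 300.4 and 326 CPM in cycling and 253 and 294 CPM in non-cycling cDC1s and did not pass (log2 fold change 0.17, adjusted p = 0.155, edgeR; with the sample as a block adjusted p = 0.0356 and with Top2a alone log2 fold change 0.26, adjusted p = 0.0492). Ccnd3 rose from 173 and 188 to 223 and 251 CPM, while Ccnd2 fell from 17.6 and 18.6 to 4.13 and 12.03 CPM. In replicate 2 Ccnd2 stood at 155 CPM in the 6 members above neither limit and at 4.86 CPM in those above both. In replicate 1 Ccnd2 stood at 0 CPM in the 11 members above neither limit and at 4.69 CPM in those above both. The fall of Ccnd2 was not called with cells thinned to 8000 UMIs (log2 fold change -0.83, adjusted p = 0.158) or with the cell filter of the study's methods (log2 fold change -0.14, adjusted p = 0.840), nor with that filter was the rise of Ccnd3 (log2 fold change 0.31, adjusted p = 0.0792). Cdk4, the kinase these cyclins drive, rose from 46.4 and 53.2 to 136 and 145 CPM (log2 fold change 1.47 ± 0.10, SE). Cyclins of the next step, Ccne1 and Ccne2, had 26.2 and 23.8 and 42.4 and 51.8 CPM against 0.424 and 0.898 and 1.27 and 0.337 CPM. Within the Myc family, Myc rose from 18.8 and 12.9 to 29.2 and 31.8 CPM, and Mycl, the member that DCs rely on, had 184 and 167 against 161 and 197 CPM and overlapped (adjusted p = 0.716, edgeR). The call for Myc was lost with that filter too (log2 fold change 0.57, adjusted p = 0.211), as was that for Mxd1 below (log2 fold change -0.76, adjusted p = 0.219), which was also lost with Top2a alone (log2 fold change -0.93, adjusted p = 0.0784). The factors that oppose Myc split. Mxd4 fell from 83.1 and 84.9 to 30.3 and 26.3 CPM (log2 fold change -1.59 ± 0.12, SE, adjusted p = 5.25e-06, edgeR) and Mxd1 from 40.7 and 54.3 to 18.7 and 32.6 CPM (270.5 CPM in the 6 members of replicate 2 above neither limit and 60.2 CPM in the 11 of replicate 1), whereas Mxd3 rose to 46.0 and 38.9 CPM from 0.106 and 0.561 CPM. E2f7 and E2f8, E2F factors that repress, had 57.6 and 54.99 and 86.8 and 86.2 CPM against 0.636 and 1.46 and 1.48 and 1.68 CPM.

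Among 24 tested brakes on the cycle, 4 were higher (16.7%, against 20.0% of all genes tested) and 9 lower (37.5%, against 17.5%). The median was -0.23. Those that rose were Cdkn2c and Cdkn2d, inhibitors of Cdk4 and Cdk6, Rbl1, the pocket protein p107, and Trp53. Cdkn2c had 57.9 and 42.4 CPM in cycling and 4.24 and 2.47 CPM in non-cycling cDC1s and Cdkn2d 32.8 and 37.8 against 3.60 and 4.603 CPM, and neither pair of groups overlapped. The lower ones included Btg1, which fell from 397 and 438 to 176 and 232 CPM (log2 fold change -1.06 ± 0.11, SE, adjusted p = 5.97e-05, edgeR), and its relatives Btg2, from 652 and 823 to 292 and 470.0 CPM, and Tob1, from 32.3 and 41.5 to 13.2 and 18.6 CPM. Per cell, Btg1 was at 5.40 and 7.31 UMIs in cycling and 7.23 and 8.61 in non-cycling cDC1s and Tob1 at 0.407 and 0.586 and 0.588 and 0.817, so within a sample these 2 were also lower in number. The inhibitor Cdkn1b, p27, had 171 and 216 against 196 and 224 CPM and did not pass (adjusted p = 0.331, edgeR), and its groups overlapped.

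Ribosome biogenesis is the assembly of ribosomes from RNA and protein in the nucleolus. Of 30 genes of ribosome biogenesis, 19 were higher and 0 lower (median 0.49). Ncl, nucleolin, rose from 442 and 466 to 833 and 809 CPM, Nop58, which guides the methylation of ribosomal RNA, from 119 and 132 to 256 and 269 CPM, and Srm, spermidine synthase, from 15.3 and 15.4 to 26.7 and 36.7 CPM. Of 16 genes of glycolysis, 9 were higher and 4 lower (median 0.40). Tpi1 rose from 35.2 and 33.3 to 100.9 and 91.4 CPM and Gapdh from 347 and 359.9 to 789 and 784 CPM, which are enzymes of the middle of the pathway. Aldoa, the aldolase just before them, fell from 309 and 299 to 137 and 154 CPM (log2 fold change -1.09 ± 0.08, SE, adjusted p = 3.35e-06, edgeR) and was lower per cell as well, with 4.21 and 4.83 against 5.62 and 5.88 UMIs. Hk3, a hexokinase of myeloid cells, fell from 66.8 and 69.3 to 35.3 and 29.8 CPM.

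**Figure D2:**
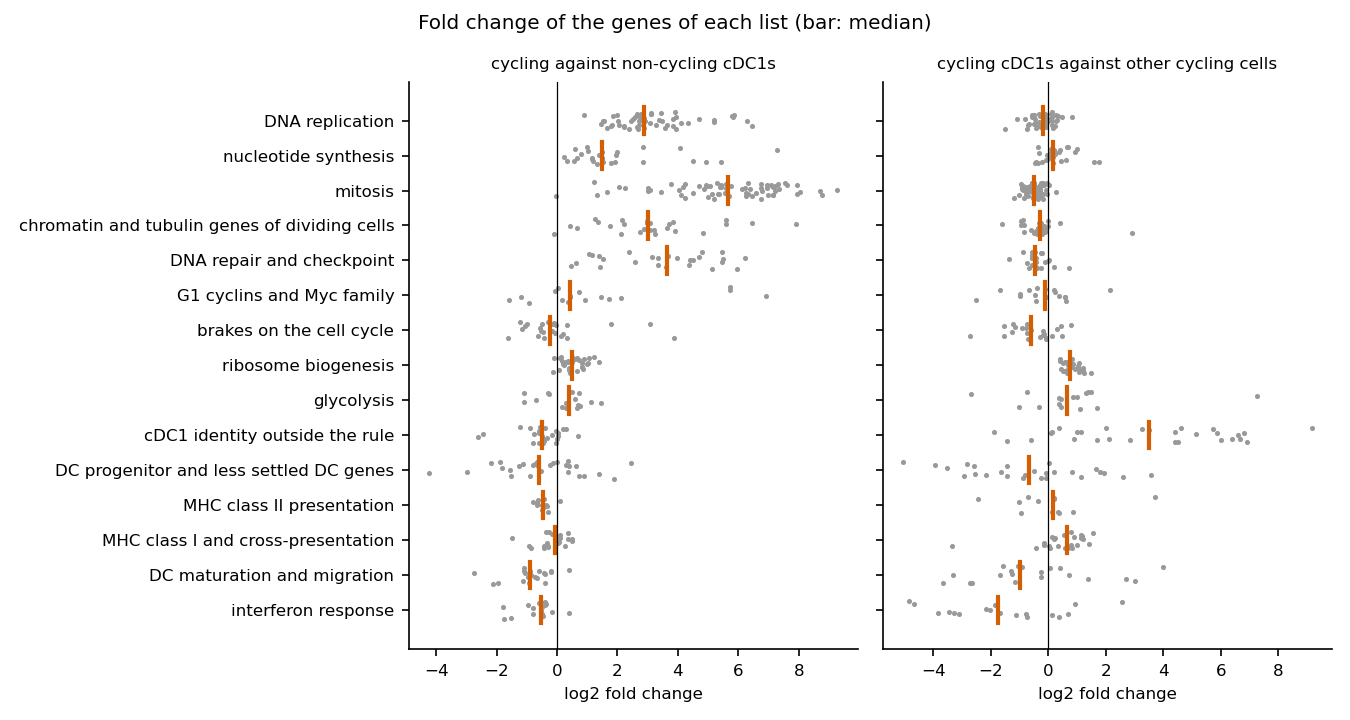
Log2 fold change of every tested gene of 15 lists (x axis), 1 grey point for each gene and a bar at the median of the list, for cycling against non-cycling cDC1s (left) and for cycling cDC1s against other cycling cells (right). The lists of DNA replication, repair and mitosis lie to the right of 0 on the left side and around or just below 0 on the right side, whereas the cDC1 genes lie just below 0 on the left side and mostly far above it on the right side. At a threshold of 200 per 1000000 UMIs the medians on the right side were -0.06 for mitosis and 0.14 for replication.

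cDC1 genes outside the rule did not move as one. Of 29 tested genes of this list of 30, 3 were higher and 18 lower, with a median of -0.48. Cd8a, Tlr3, Batf3 and Gcsam (225 and 204 against 214 and 201 CPM) did not pass. Ifi205 rose from 389 and 380.3 to 637 and 635 CPM, Cd24a, the cell surface sialoglycoprotein, from 334 and 355 to 447 and 423 CPM, and Id2, the inhibitor of E proteins that cDC1s need, from 1148 and 1145 to 1312 and 1348 CPM, a call that 4 of the alternatives lost (log2 fold change 0.02, adjusted p = 0.882 with the study's cell filter). Wdfy4, which cross-presentation by cDC1s needs, fell from 1547 and 1560.4 to 1348 and 1169 CPM (log2 fold change -0.33) and Flt3 from 609 and 605 to 436 and 447 CPM (-0.49). These falls are smaller than the difference in depth, and the mean cycling cell held 13.4 and 14.1 UMIs of Flt3 and the mean non-cycling cell 11.1 and 11.9.

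Itgae and Apoe had the lowest fold changes of this list. Itgae, the alpha chain of CD103, an integrin that binds E-cadherin and is found on a part of splenic cDC1s, had 12.7 and 19.2 CPM in cycling, 52.2 and 66.9 CPM in the cDC1s with 1 to 5 UMIs and 69.1 and 103 CPM in non-cycling cDC1s. The cycling cDC1s of both samples lay below the other cDC1s (log2 fold change -2.46 ± 0.24, SE, adjusted p = 3.62e-05, edgeR). Apoe, apolipoprotein E, had 14.6 and 19.5, 61.7 and 52.4 and 105 and 99.8 CPM in the same order (log2 fold change -2.61 ± 0.14, SE, adjusted p = 3.81e-07, edgeR). Both were also lower per cell, with 0.390 and 0.604 UMIs of Itgae against 1.26 and 2.02 and 0.449 and 0.613 of Apoe against 1.90 and 1.96. At 8000 UMIs per cell, an Itgae UMI was found in 8.04% (3.74 to 14.7) and 9.26% (4.53 to 16.4) of cycling cDC1s and in 24.3% (20.4 to 28.5) and 33.3% (28.7 to 38.2) of non-cycling ones. In other cycling cells, which are not cDC1s by the rule, the share was 0.746% and 2.67% at the same depth. With all UMIs the shares were 22.03% and 27.0% of cycling and 31.4% and 44.8% of non-cycling cDC1s, with the median depths given above. Thinning left out 6 and 3 of the cycling and 66 and 57 of the non-cycling cDC1s. Cxcl9, a chemokine that draws T cells, fell from 686 and 978 to 336 and 395 CPM and was lower per cell too. In replicate 2 it stood at 2566 CPM in the 6 members above neither limit and at 299.9 CPM in those above both. In replicate 1 it stood at 402 CPM in the 11 members above neither limit and at 259 CPM in those above both. Cd207, langerin, had 22.05 and 22.3 CPM in cycling and 25.4 and 34.5 CPM in non-cycling cDC1s (log2 fold change -0.46 ± 0.19, SE, adjusted p = 0.0848, edgeR; adjusted p = 0.0451 with the sample as a block), and it also passed in 3 of the other settings.

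Along the count of Top2a and Mki67, levels took different courses. Cells were divided into those with 0, 1 to 5, 6 to 11, 12 to 39, 40 to 99 and 100 or more such UMIs, which gave 519, 189, 29, 30, 24 and 35 cells in replicate 1 and 453, 172, 22, 29, 27 and 33 in replicate 2. Median UMIs per cell went from 17423 to 44888 in replicate 1 and from 19141 to 40914 in replicate 2, so depth moves with these classes, and its part in the levels was not tested. Itgae was at 69.1, 52.2, 22.1, 16.2, 2.71 and 11.7 CPM in replicate 1 and at 103, 66.9, 10.3, 29.6, 11.5 and 21.7 CPM in replicate 2. The classes with 6 or more UMIs lay below those with 0 and 1 to 5 in both samples. Apoe was at 105, 61.7, 25.1, 23.6, 16.2 and 5.22 CPM in replicate 1 and at 99.8, 52.4, 11.99, 32.2, 12.8 and 19.5 CPM in replicate 2, with a lower value already at 1 to 5 UMIs. Clec9a, one of the genes that chose the cells, was at 1619, 1499, 1048, 869, 794 and 727 CPM and 1492, 1329, 817, 896, 675 and 654 CPM and went down step by step in replicate 1. The MHC class II list went from 72765 to 50158 CPM and from 75196 to 52845 CPM between the first and the last class. Myb, the transcription factor of progenitors, went the other way, with 4.13, 8.70, 17.7, 19.1, 46.0 and 41.8 CPM and 7.30, 9.63, 17.1, 36.3, 37.2 and 27.5 CPM, and was highest in the classes from 12 UMIs up.

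**Figure D3:**
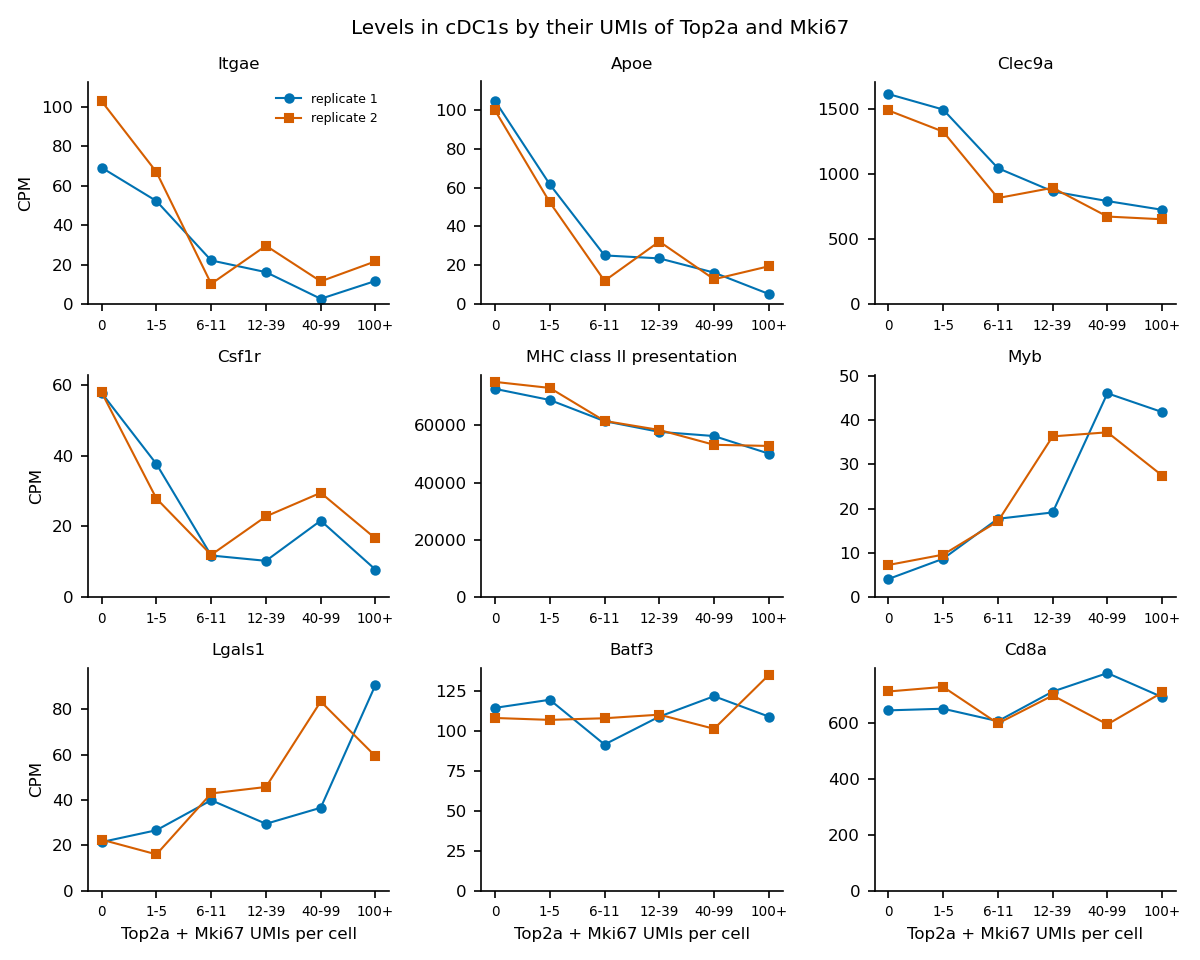
CPM (y axis, from 0) in cDC1s grouped by their UMIs of Top2a and Mki67 (x axis) for 9 genes or lists, with replicate 1 as circles and replicate 2 as squares. Itgae, Apoe, Clec9a, Csf1r and the MHC class II list are highest in cells with 0 UMIs, Myb and Lgals1 are higher in all classes with 6 or more UMIs than in those below, and Batf3 and Cd8a show no steady course.

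Genes of DC progenitors and of less settled DCs did not move as a block. Of 28 tested genes of a list of 35, 6 were higher (21.4%, against 20.0% of all genes tested). Lower ones numbered 14 (50.0%, against 17.5%), and the median was -0.59. Myb rose from 4.13 and 7.30 to 33.9 and 29.8 CPM (log2 fold change 2.45 ± 0.26, SE, adjusted p = 5.97e-05, edgeR). Lgals1, galectin-1, rose from 21.4 and 22.5 to 58.7 and 59.0 CPM and Vim, vimentin, from 269 and 318 to 514 and 587 CPM. Cd34, a surface protein of progenitors, rose as well but from few transcripts, with 4.13 and 6.30 against 1.59 and 1.123 CPM. Kit, the receptor of stem cell factor, had 141 and 143 against 151 and 156 CPM and did not pass (adjusted p = 0.185, edgeR). Among those that fell were receptors for growth factors of myeloid cells. Csf1r went from 57.6 and 57.8 to 11.8 and 20.05 CPM (log2 fold change -1.89 ± 0.19, SE, adjusted p = 4.62e-05, edgeR), Csf2ra from 687 and 639 to 377 and 402 CPM and Csf2rb from 271 and 266 to 154 and 174 CPM. Per cell, Csf1r was lower in both samples, with 0.364 and 0.631 against 1.05 and 1.14 UMIs. Csf2ra (11.6 and 12.7 against 12.5 and 12.6) and Csf2rb (4.75 and 5.46 against 4.94 and 5.23) were lower per cell in replicate 1 only. Lgals3, galectin-3, fell from 893 and 977 to 267 and 374 CPM and from 16.2 and 19.2 to 8.22 and 11.8 UMIs per cell. Ccr2, the chemokine receptor that brings cells out of the bone marrow, had 81.0 and 114 CPM in cycling and 98.4 and 91.4 CPM in non-cycling cDC1s (log2 fold change 0.01 ± 0.13, SE, adjusted p = 0.958, edgeR), and the groups overlapped.

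Antigen presentation by MHC class II took a smaller share of the UMIs. Of 13 tested genes, 0 were higher and 11 lower, with a median of -0.48 and a lowest value of -0.80. H2-Aa, a chain of the class II molecule, had 8707 and 8748 CPM in cycling and 11768 and 12149.9 CPM in non-cycling cDC1s (log2 fold change -0.48 ± 0.04, SE, adjusted p = 4.77e-06, edgeR). Cd74, the invariant chain, had 14658 and 14874 against 19287 and 19898 CPM, and Ciita, the activator of these genes, 637 and 608 against 791 and 779 CPM. Counted per cell the direction was the opposite, with 268 and 275 UMIs of H2-Aa in the mean cycling cell and 214 and 239 in the mean non-cycling one. The whole list held 1690 and 1748 UMIs per cycling cell and 1323 and 1479 per non-cycling cell. Of 24 genes of MHC class I and cross-presentation, 4 were higher (16.7%, against 20.0% of all genes tested). Lower ones numbered 9 (37.5%, against 17.5%), and the median was -0.07. Calr, the chaperone calreticulin, rose from 825 and 897 to 1149 and 1311 CPM and Psmb8, a subunit of the immunoproteasome, from 393 and 431 to 539 and 534 CPM. B2m fell from 2813 and 3086 to 2421 and 2555 CPM and Nlrc5, the activator of class I genes, from 162 and 166 to 84.6 and 97.7 CPM. Cybb, the NADPH oxidase subunit of phagosomes, fell from 82.4 and 70.3 to 25.6 and 29.8 CPM (log2 fold change -1.49 ± 0.14, SE, adjusted p = 2.14e-05, edgeR) and was lower per cell, with 0.788 and 0.937 against 1.499 and 1.38 UMIs.

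Genes of maturation and migration took a smaller share of the UMIs or did not pass. Of 21 tested genes, 0 were higher and 15 lower (median -0.89). Counted per cell, the whole list held 57.7 and 69.8 UMIs in cycling and 57.9 and 69.3 in non-cycling cDC1s. Cd83, which keeps MHC class II at the surface of mature DCs, fell from 889.6 and 1030.0 to 370.1 and 554 CPM, Cd80, a ligand of CD28, from 114 and 141 to 59.0 and 67.0 CPM and Cd86, the other ligand, from 484 and 501 to 306 and 303 CPM (log2 fold change -0.72 ± 0.06, SE, adjusted p = 1.70e-05, edgeR). Per cell, Cd83 (11.4 and 17.4 against 16.2 and 20.3 UMIs) and Cd80 (1.81 and 2.11 against 2.07 and 2.78) were also lower. Cd86 was not lower per cell in both samples, with 9.41 and 9.52 against 8.81 and 9.85 UMIs. Ccr7, the receptor that leads mature DCs to T cell zones, had 3.58 and 16.04 CPM in cycling and 25.2 and 48.2 CPM in non-cycling cDC1s, and Il12b, a chain of IL-12, 9.65 and 13.7 against 24.3 and 75.9 CPM. In replicate 2, the 6 members above neither limit of the replication and mitosis lists had 270.5 CPM of Ccr7 and 201 CPM of Il12b, against 2.21 and 5.30 CPM in the members above both. Replicate 1 did not repeat this for Ccr7. There the 11 members above neither limit had 0 CPM of Ccr7 and 36.8 CPM of Il12b. Those above both had 0 and 8.66 CPM, and those above for mitosis alone 25.5 and 0 CPM. The call of Ccr7 rested on 13 and 56 UMIs in cycling cDC1s and was lost with DESeq2 (log2 fold change -1.94, adjusted p = 0.171), at a threshold of 3 UMIs (log2 fold change -1.29, adjusted p = 0.143) and with Top2a alone (log2 fold change -0.98, adjusted p = 0.245). A threshold of 3 UMIs also ended the call of Il12b (log2 fold change -0.47, adjusted p = 0.610), as did Top2a alone (log2 fold change -0.60, adjusted p = 0.571). Of 17 tested genes of the interferon response, 0 were higher and 7 lower (median -0.54). Irf7, a factor of that response, had 48.2 and 43.8 against 47.8 and 53.5 CPM and did not pass.

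Markers of other cells were low. The cDC2 list summed to 171 and 222 CPM in cycling cDC1s and 281 and 245 CPM in non-cycling cDC1s, the pDC list to 194 and 152 CPM in cycling cDC1s and 247 and 284 CPM in non-cycling cDC1s and the macrophage list to 82.1 and 83.6 CPM in cycling cDC1s and 169 and 204 CPM in non-cycling cDC1s. Of 10 tested genes of cDC2s 0 were higher and 4 lower, of 8 of pDCs 0 and 6, and of 10 of macrophages 0 and 6. The monocyte and neutrophil list stood at 474 and 67.6 CPM in cycling cDC1s and 27.7 and 28.0 CPM in non-cycling cDC1s. In it S100a8 (139 and 3.72 CPM) and S100a9 (106 and 3.72 CPM), neutrophil proteins, passed as higher, and 1 cell of replicate 1 and 1 of replicate 2 with 10 or more UMIs of S100a8, S100a9 and Ngp were found among the members and 0 among non-cycling cDC1s. Without these cells 2296 genes were higher and 2005 lower, and neither gene had enough UMIs to be tested. The erythroid list stood at 17.4 and 8.88 CPM in cycling cDC1s and 25.3 and 122 CPM in non-cycling cDC1s, the list of B and plasma cells at 219 and 217 CPM in cycling cDC1s and 268 and 242 CPM in non-cycling cDC1s and that of T and NK cells at 3.03 and 2.86 CPM in cycling cDC1s and 17.8 and 15.7 CPM in non-cycling cDC1s, with 0 tested genes of the 3 lists higher and 3, 2 and 3 lower. Listed markers at 0 in the cycling cDC1s of both samples included Cox6a2, Klk1, Klrb1c, Mpo, Mzb1, Prf1 and Siglec1. Scrublet called 6 and 2 members as doublets (5.08% and 1.80%), and 4 and 5 of the non-cycling cDC1s (0.77% and 1.10%). Of all cells it called 1.03% and 0.84%. The cell filter of the study's methods, which keeps cells within 3 median absolute deviations of the mean, removed 68 of 118 and 74 of 111 members and 24.9% and 32.9% of non-cycling cDC1s, so that 50 and 37 members were left. With this filter 1236 genes were higher and 975 lower, and Itgae (log2 fold change -2.24), Apoe (-2.45) and Myb (1.59) still passed.

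Genes on none of the lists were named by the size of their fold change, 12 in each direction. Among those that rose was Esco2, which helps to hold sister chromatids together, with 80.7 and 61.0 CPM against 0.106 and 0 CPM, and Cep55, which cuts the last bridge between daughter cells, with 105 and 94.2 against 1.06 and 0.786 CPM. Prr11 had 136 and 118 against 0.530 and 0.449 CPM, Cit, citron kinase, 90.1 and 90.5 against 1.48 and 1.123 CPM and Stil, needed to copy centrioles, 82.4 and 70.7 against 1.06 and 1.23 CPM. Depdc1a, Sgo2a, Troap, Iqgap3, Cip2a, Spag5 and Knstrn rose likewise, and their highest value in a non-cycling sample was 2.92 CPM. Sgo2a is off the lists by symbol only, since the mitosis list holds this gene under its older symbol, Sgol2a. Lyz1 and Lyz2, the lysozymes, had 9.37 and 7.45 and 180.2 and 240.0 CPM against 60.5 and 72.1 and 771 and 759.8 CPM (log2 fold changes -3.00 and -1.89). The 2 genes are near-identical copies, so reads could be split between them and each value alone is uncertain. Mt1, metallothionein-1, fell from 84.2 and 92.2 to 20.1 and 29.2 CPM, Rgs1, which dampens signals of chemokine receptors, from 275 and 291 to 82.4 and 88.5 CPM (log2 fold change -1.76 ± 0.08, SE, adjusted p = 1.60e-07, edgeR) and Slfn5 from 226 and 220.1 to 58.4 and 68.7 CPM. Dkk3, Dhx40, Lpin1, P3h2, Adam22, Hepacam2 and Gm34084 made up the rest, with log2 fold changes from -1.92 to -1.67.

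**Figure D4:**
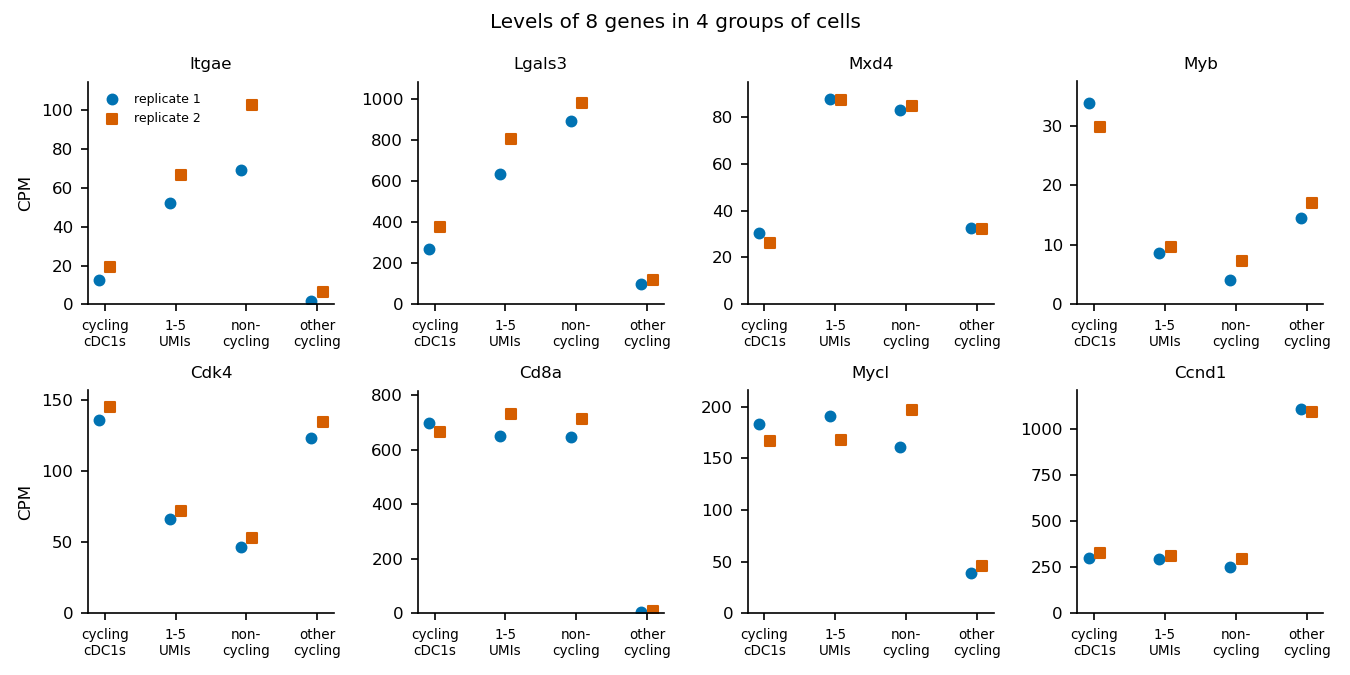
CPM (y axis, from 0) of 8 genes in cycling cDC1s, cDC1s with 1 to 5 UMIs of Top2a and Mki67, non-cycling cDC1s and other cycling cells (x axis), 1 circle for replicate 1 and 1 square for replicate 2. Itgae, Lgals3 and Mxd4 are lower in cycling than in non-cycling cDC1s, Myb and Cdk4 are higher, Cd8a and Mycl overlap between cycling and non-cycling cDC1s and are lower in other cycling cells, and Ccnd1 is highest in other cycling cells.

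To ask how cycling cDC1s differ from other dividing cells, they were set against 155 and 166 other cycling cells, which held 6 or more UMIs of Top2a and Mki67, at least 5 of H2-Ab1 and under 5 of the 4 cDC1 genes of the rule. These cells carried cDC2 markers, with that list at 171 and 222 CPM in cycling cDC1s and 988 and 982 CPM in the other cycling cells. They were shallower, with a median of 15290 and 14601.5 UMIs. The mean cycling cDC1 held 1.81 and 1.97 times as many UMIs as the mean other cycling cell. This is a shift of 0.86 and 0.98 on the log2 scale. Of 10464 genes tested, 2056 were higher in cycling cDC1s, which is 19.6%, and 2091 were lower, which is 20.0%. The cDC1 list was higher for 23 of 29 tested genes and lower for 2, with a median of 3.49, which goes with the choice of the groups. Genes of mitosis were lower in cycling cDC1s for 47 of 69 tested genes and higher for 1, with a median of -0.49, and genes of DNA replication were lower for 16 of 53 and higher for 1, with a median of -0.19. Counted per cell the direction was the opposite. The mitosis list held 302 and 288 UMIs in the mean cycling cDC1 and 226 and 245 in the mean other cycling cell. The DNA replication list held 146 and 143 against 98.6 and 87.7 UMIs. Both counts of genes depended on the threshold in UMIs, which a shallow cell passes only at a higher share. With both groups chosen by 200 or more UMIs of Top2a and Mki67 per 1000000, 7 genes of mitosis were lower and 4 higher (median -0.06), and 4 genes of DNA replication were lower and 12 higher (median 0.14). The median of Top2a and Mki67, which chose both groups, was 1952 and 1894 UMIs per 1000000 in cycling cDC1s and 2564 and 3350.0 in the other cells. Ccnb1 stood at 67.8 and 69.9 CPM in cycling cDC1s and 110.3 and 109 CPM in the other cells (log2 fold change -0.55 ± 0.12, SE, adjusted p = 0.00277, edgeR; log2 fold change -0.09, adjusted p = 0.586 by that threshold), whereas Cdk1 did not pass, with 181 and 172 against 189 and 191 CPM, but was higher by that threshold (log2 fold change 0.47, adjusted p = 0.00172).

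Cyclin and Myc genes differed between the cycling groups. Ccnd1 stood at 300.4 and 326 CPM in cycling cDC1s and at 1105 and 1089.7 CPM in other cycling cells (log2 fold change -1.69 ± 0.07, SE, adjusted p = 1.15e-08, edgeR), and Ccnd2 at 4.13 and 12.03 against 60.1 and 39.6 CPM, while Ccnd3 did not pass. Mycl had 184 and 167 CPM in cycling cDC1s and 39.2 and 46.0 CPM in the others (log2 fold change 2.16 ± 0.13, SE, adjusted p = 1.22e-07, edgeR). Genes of ribosome biogenesis were higher in cycling cDC1s for 27 of 30 and lower for 0, with a median of 0.75, and genes of glycolysis were higher for 12 of 16 and lower for 3. Of the genes that fell in cycling against non-cycling cDC1s, Itgae remained above the other cycling cells (1.52 and 6.41 CPM there, log2 fold change 2.11 ± 0.48, SE), and Apoe did not pass (29.3 and 26.4 CPM), but was lower with the sample as a block (log2 fold change -0.60, adjusted p = 0.0330), with the study's cell filter (log2 fold change -1.24, adjusted p = 0.0153), at a threshold of 3 UMIs (log2 fold change -1.07, adjusted p = 0.00398) and at 200 per 1000000 UMIs (log2 fold change -1.07, adjusted p = 0.00230). Myb was higher in cycling cDC1s, with 33.9 and 29.8 against 14.5 and 17.0 CPM (log2 fold change 1.14 ± 0.22, SE, adjusted p = 0.00141, edgeR), but the call was lost with cells thinned to 8000 UMIs (log2 fold change 0.52, adjusted p = 0.291) and with the study's cell filter (log2 fold change 0.33, adjusted p = 0.568). Csf1r was lower, with 54.4 and 54.0 CPM in the others, and Cd34 did not pass. Interferon response genes were lower for 13 of 18 and higher for 3.

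By the rule on fold change, the genes that set cycling cDC1s highest above other cycling cells were Met, Gpr141b, Fzd1, Pdia5, Serpinb8, Pianp, Itga8 and Ttc39a. Gpr141b, a receptor of the G protein-coupled kind, had 655 and 605 against 3.04 and 2.26 CPM and Pdia5, a protein disulfide isomerase, 203 and 223 against 4.18 and 2.26 CPM. Those lowest were Slc8a2, Gm47922, Ptger3, Sh2d1b1, Ifitm1, AC140186.1, Scn3a and Cd7. Cd7, a surface protein better known from T and NK cells, had 14.9 and 22.3 against 705 and 631 CPM and Ptger3, a receptor of prostaglandin E2, 1.38 and 0.573 against 51.0 and 54.3 CPM. Cycling and other cells did not overlap for any of these 16 genes, which the choice by fold change fixes.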

How the data were processed

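Single-cell RNA was measured in 2 samples of CD11c-enriched spleen cells. The deposited counts are UMIs per gene and cell, which the authors made with the BD Rhapsody WTA Analysis Pipeline 1.12.1 on GRCm38 with intronic reads counted, before work in Seurat 4.3.0.1 and R 4.2.3 (submitters' processing notes). Tags of other mice in the run were not analysed here. The cells and gene lists were chosen with earlier results of these data known.

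UMIs were summed per sample and group of cells and tested with edgeR 4.0.16 (R 4.3.3; TMM scaling, filterByExpr, quasi-likelihood test, Benjamini-Hochberg adjustment, threshold 0.05), without the genes of the rule. DESeq2 1.42.0, other scalings, filters and thresholds, cells thinned to 8000 UMIs and the sample as a block were alternatives. Both groups come from the same 2 samples, so the numbers pair the sums. Deviations of same-numbered sums had a correlation of 0.119 between cycling and non-cycling cDC1s and of 0.0751 between cycling cDC1s and other cycling cells. Counts of the 2 samples differed by more than sampling noise (chi-square per degree of freedom 2.79 for cycling cDC1s). Beyond the lists, the genes named were the 12 (first comparison) or 8 (second) of largest fold change in each direction. They were taken from genes with at least 50 CPM in the higher group, the same direction in both samples and a symbol on no list. Tested on simulated data, the first comparison recovered 121 of 200 genes changed 2-fold and 183 of 200 changed 4-fold among 11378 genes, and the second recovered 141 and 190 of 200 among 10464. Unchanged genes gave 6 and 7 false calls in the first comparison and 19 and 15 in the second. In the second comparison the false calls were a larger share of all calls than the threshold of 0.05. The simulation changed 200 genes, far fewer than were called in the data, so it does not give the error rate for that case. Scrublet was run through scanpy 1.11.5. Intervals are exact binomial at 95%. Values of some genes are not reported here.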

Additional observations from a re-analysis of the deposited data

How the results depend on the processing

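Counts of genes have no value without a replicate, since 1 sample a group is left. Between cycling and non-cycling cDC1s, the study's cell filter left 1236 higher and 975 lower genes, thinning to 8000 UMIs left 1512 and 1270, and DESeq2 called 1275 lower. Against other cycling cells, DESeq2 called 1363 higher genes and the study's cell filter 1297. The cause was not tested, though the filter leaves 87 members and thinning leaves fewer UMIs. With the sample as a replicate block the counts were 2498 higher and 2321 lower, and 2249 and 2276 against other cycling cells, and the block changed the calls of Ccnd1, Cd207 and Apoe (against other cycling cells) among the genes named with values. Members numbered 111 without replicate 1 and 118 without replicate 2. Their mean share of the cells of the cDC1 rule was 14.7%, against 17.7% at 200 UMIs per 1000000, 8.36% with the study's cell filter, 21.6% at 3 UMIs, 11.4% at 12 UMIs and 11.7% with thinning before the rule. The removal of cells with neutrophil genes was chosen after seeing the data.

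Of the log2 fold changes of single genes under alternatives, 2133 kept direction and, where a test was possible, the call. Of these, 132 without replicate 1 and 129 without replicate 2 have a direction only, since no test was possible there. A further 19 lost the call, 11 gained one and 41 changed direction. Those that changed direction were uncalled as reported and, where a test was possible, under the alternative. Batf3 then had 0.088, 0.015, 0.032, 0.0016, 0.047 and 0.0040 and ranged from -0.079 to 0.12 with a replicate left out. Ccnd1 then had -0.024. Ccr2 then had -0.023, -0.18, -0.044, -0.073 and -0.023 and ranged from -0.28 to 0.32 with a replicate left out. Cd8a then had 0.0043, 0.012 and 0.053 and ranged from -0.10 to 0.11 with a replicate left out. Cdk1, against other cycling cells, then had -0.17, -0.092, -0.23 and -0.034 and ranged from -0.15 to -0.063 with a replicate left out. Gcsam then had -0.011, -0.038 and -0.030. Irf7 ranged from -0.28 to 0.013 with a replicate left out. Mycl then had 0.016 and ranged from -0.24 to 0.19 with a replicate left out. Pttg1 then had 0.015, 0.0005, 0.028, 0.018 and 0.022 and ranged from -0.20 to 0.18 with a replicate left out. Tlr3 then had 0.029, 0.046, 0.0020 and 0.039 and ranged from -0.11 to 0.081 with a replicate left out.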
